A study of Mus musculus with 146 samples.

Results

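The 8 genes described here encode proteins that hydroxylate, esterify, release and move cholesterol in macrophages. Ch25h and Cyp27a1 make oxysterols, Gpr183 senses them, Soat1 makes cholesterol esters, Nceh1 and Lipa cleave those esters, and Npc1 and Npc2 carry free cholesterol out of the lysosome. The genes were chosen by name and found by their Ensembl identifiers. All 8 were present among the 22721 genes of the raw count table, and all 8 also had a row among the 10893 genes of the table of variance-stabilised values (VST, a log2 scale on which the spread depends less on the level).

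Polyadenylated RNA of untreated bone marrow-derived macrophages was sequenced from 146 mice of the outbred strain Crl:CFW(SW)-US_P08 (CFW) at 16 weeks of age. Marrow cells had grown for 5 days in medium conditioned by L929 fibroblasts, which supplies macrophage colony-stimulating factor. Mice were labelled female (86 libraries) or male (60 libraries), and libraries were spread over 7 plates and 28 collection date labels. The date labels mix written forms, and the day and month of some are ambiguous. They are therefore used only as names, with no order. Each mouse gave 1 library, so the p-values below measure the spread between mice together with that of culture and library preparation.

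Cholesterol reaches macrophages in lipoproteins, whose esters are hydrolysed in the lysosome by the acid lipase encoded by Lipa. The soluble protein NPC2 passes the free sterol to NPC1 in the lysosomal membrane, and cholesterol that arrives in the endoplasmic reticulum is esterified by SOAT1 and stored in droplets until a neutral hydrolase such as NCEH1 releases it. Hydroxylation by CH25H or by the mitochondrial enzyme CYP27A1 gives oxysterols, which activate LXR nuclear receptors and restrain processing of SREBP2, the transcription factor of cholesterol synthesis. Ch25h is known as an interferon-inducible gene of macrophages, and further hydroxylated oxysterols guide immune cells through GPR183.

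Libraries held 14.5 to 120.9 M counts, with a median of 43.8 M. In 6 libraries the Y-linked counts went against the labelled sex, and values without them are given where they change a result. Macrophage markers were abundant. Markers of T and NK cells and of red cells summed to at most 3.09 and 1.30 CPM (counts scaled to library totals of 1 M), and the larger sums of other cell types are given beside the results they move with. No pair of libraries held identical counts.

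Ch25h and Lipa lie beside each other on chromosome 19 in GRCm38, both on the minus strand, with 17.2 kb and no annotated gene between them. Ch25h occupies 34473778 to 34475164 and Lipa 34492318 to 34527474. Cyp27a1 lies on chromosome 1 from 74713574 to 74737892 on the plus strand, and Soat1 on the same chromosome from 156424525 to 156474331 on the minus strand. Gpr183 lies on chromosome 14 (121952551 to 121965195, minus strand), Nceh1 on chromosome 3 (27182965 to 27284608, plus strand) and Npc2 on chromosome 12 (84754562 to 84773152, minus strand). The library kit did not mark strand, so reads of genes on opposite strands cannot be told apart. No other member but Npc1 overlaps a gene with counts. Ch25h shared 8.22% of its 50-mers with a gene on the opposite strand that had 0 counts.

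The promoters of Ch25h, Cyp27a1 and Npc2 are shown because, among the members, Ch25h had its strongest relations over the 146 mice with Npc2 and Cyp27a1. The bases come from the RefSeq promoter table of GRCm38.p6, in which all members but Npc1, 7 of the 8 genes, had an entry, and each run ends before the annotated transcript. Capitals mark the cAMP response element TGACGTCA, the TATA box TATAAA and the CCAAT box (ATTGG on the other strand).
Ch25h, chr19:34475165-34475382, minus strand: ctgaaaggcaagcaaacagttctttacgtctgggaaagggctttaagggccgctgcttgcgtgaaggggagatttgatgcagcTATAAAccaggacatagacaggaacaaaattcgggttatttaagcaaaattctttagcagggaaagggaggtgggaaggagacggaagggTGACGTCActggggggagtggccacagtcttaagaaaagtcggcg
Cyp27a1, chr1:74713285-74713534, plus strand: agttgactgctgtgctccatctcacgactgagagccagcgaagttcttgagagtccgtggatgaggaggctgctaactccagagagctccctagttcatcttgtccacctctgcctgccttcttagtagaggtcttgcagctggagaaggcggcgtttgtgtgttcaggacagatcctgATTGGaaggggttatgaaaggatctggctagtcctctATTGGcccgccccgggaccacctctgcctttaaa
Npc2, chr12:84773153-84773250, minus strand: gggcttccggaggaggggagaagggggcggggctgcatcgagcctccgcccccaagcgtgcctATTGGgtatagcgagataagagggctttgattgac

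Ch25h held the cAMP response element 61 bases before its RefSeq start, a motif found in 1.62% of 27025 promoters over the 250 bases before the start, and a TATA box at 151 bases (12.97% of promoters). Cyp27a1 held CCAAT boxes 71 and 34 bases before its start and a GC box (GGGCGG, 32.9% of promoters) at 28. Npc2 held CCAAT boxes at 75 and 6 bases and GC boxes at 173, 114 and 93, of which those at 6 and 173 lie outside the printed bases. The CCAAT box occurred in 34.5% of promoters, and Soat1, Nceh1 and Lipa also held it, at 30, 50 and 26 bases. Nceh1 further held an E-box (CACGTG, 6.05% of promoters) at 26 bases, Soat1, Nceh1 and Lipa an ETS core (GGAAGT, 19.99%) at 172, 73 and 50, and Lipa a TATA box at 239. Gpr183 had a single match, an ETS core at 66 bases. Both strands were searched, and motifs could overlap. None of the 7 genes searched matched the letters of the SRE (TCACNCCAC, 1.04%) or AP-1 (TGANTCA, 6.87%), or matched the interferon-stimulated response element (3.04%), the NF-kB site (1.17%) or the LXR element (0.0111%) in this window. A match of letters is a description and not a site of binding.

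Levels of the 8 genes differed widely in size and in spread. Ch25h, the cholesterol hydroxylase of the endoplasmic reticulum, ran from 1.04 CPM over a median of 29.9 to 147 CPM, a 142-fold range (n = 146). Cyp27a1, the mitochondrial sterol hydroxylase, was low throughout, with 3.63, 7.17 and 12.2 CPM as lowest, median and highest value. Gpr183, the oxysterol receptor, had 32.1, 46.5 and 77.2 CPM in the same order. The Ch25h range was by far the widest of the 3.

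The genes of ester turnover and lysosomal exit were abundant. Their standard deviations on the VST scale, 0.125 for Npc1, 0.143 for Soat1, 0.180 for Lipa, 0.183 for Nceh1 and 0.210 for Npc2, lay near the median of 0.178 over all VST genes. Soat1, which esterifies cholesterol, ranged from 305 to 497 CPM around a median of 397. Nceh1, the neutral ester hydrolase, ranged from 337 to 682 CPM around 546, and Lipa, the lysosomal acid lipase, from 1097 to 2023 CPM around 1373. For each of these 3 genes the highest mouse was at most 2.03-fold above the lowest. Npc1, the membrane protein of sterol exit, spanned 320 to 472 CPM around a median of 393, the narrowest range of the 8 genes at 1.48-fold. Npc2, its soluble partner, spanned 712 to 1523 CPM around 1053.

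Per kilobase of the principal transcript the median levels ordered as Lipa (462 CPM per kb), Npc2 (319), Nceh1 (122), Npc1 (75.2), Soat1 (47.4), Ch25h (21.6), Gpr183 (17.1) and Cyp27a1 (3.79). With the length of all exons merged, Soat1 stood at 40.5 and Npc1 at 34.7 CPM per kb, so the order of that pair depends on the length used. The other neighbours kept their order. The ranges over mice overlapped for Lipa and Npc2 and for Nceh1 and Npc1, and that of Ch25h overlapped those of all other members except Lipa and Npc2.

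**Figure D1:**
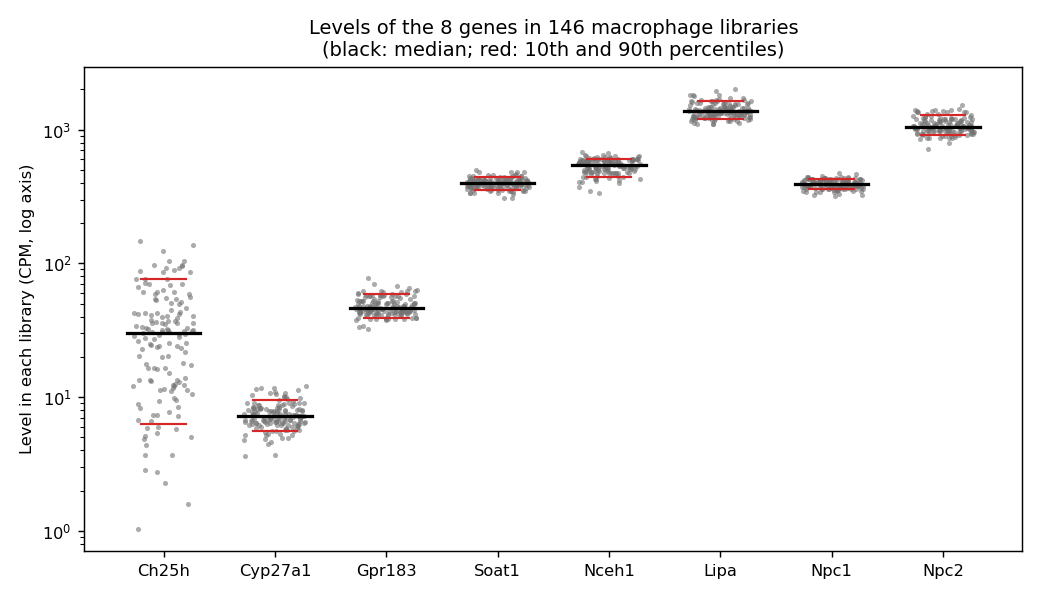
Level of each of the 8 genes in each of 146 libraries, in CPM on a log axis, with a bar at the median. Ch25h spreads from 1.04 to 147 CPM, whereas Npc1 stays between 320 and 472 CPM.

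Ch25h was among the most variable genes of these macrophages. Its standard deviation on the VST scale was 1.21, rank 6 of 10893 genes, against a median of 0.178 over all genes, while its mean level ranked 6508. After removal of plate and labelled sex it ranked 9. The coefficient of variation of its CPM was 82.7%, against 22.2% for Cyp27a1, 16.1% for Gpr183, 13.5% for Npc2, 12.6% for Lipa, 12.2% for Nceh1, 9.17% for Soat1 and 7.66% for Npc1, whose VST spread ranked 9068.

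Ch25h formed a continuum and not 2 sets of mice. In 2 mice it lay under 2 CPM, in 8 between 2 and 5, in 17 between 5 and 10, in 25 between 10 and 20, in 47 between 20 and 40, in 33 between 40 and 80, and in 14 above 80 CPM. The tenth and ninetieth percentiles, 6.33 and 76.6 CPM, were 12.1-fold apart, so the wide range did not rest on a few extreme libraries.

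The libraries at the ends of the Ch25h range lay on several plates. The lowest, female 83 on plate 8, had 15 counts, 1.04 CPM (exact 95% interval 0.580 to 1.71, counting error only), in the shallowest library of the set. Male 7 on plate 1 had 1.59 CPM, male 37 on plate 4 had 2.28, female 9 on plate 10 had 2.77 and female 24 on plate 2 had 2.83. The highest were female 49 on plate 4 with 147 CPM (interval 144 to 151) and male 28 on plate 3 with 138 CPM, both collected on 28/10/2010, then female 78 with 124, female 28 with 105 and female 57 with 105 CPM. Npc2 had 1304 to 1523 CPM in the 5 libraries lowest in Ch25h and 940 to 1049 CPM in the 5 highest. Cyp27a1 had 7.73 to 12.2 CPM in the same lowest 5 and 4.81 to 7.27 CPM in the highest 5. These libraries were chosen by their Ch25h, and limma called 71.6% of all genes with Ch25h. The share of all genes with such gaps was not counted. The lowest Ch25h values cannot be read more finely than their counting intervals allow.

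Ch25h differed between plates and, within plates, between collection dates. Its median was 27.2 CPM on plate 1, 20.2 on plate 2, 42.3 on plate 3, 47.7 on plate 4, 35.4 on plate 7, 18.1 on plate 8 and 12.7 on plate 10. Plates held both low and high mice, from 2.77 to 69.8 CPM on plate 10 and from 2.28 to 147 CPM on plate 4, and the plates overlapped. Among the 17 date labels with at least 4 mice the median went from 3.71 CPM on 22/07/2010 to 68.9 CPM on 2010-04-11, an 18.6-fold difference. The 5 mice of the first date lay between 1.59 and 6.67 CPM and the 5 of the other between 40.4 and 97.9 CPM. These dates were chosen as the ends of the 17 medians, which favours such a gap.

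Mice collected on the same date still differed in Ch25h. The highest mouse of a date stood 2.42-fold to 37.4-fold above the lowest, with a median of 5.36-fold over the 17 dates. Removing the date means lowered the standard deviation of Ch25h on the VST scale from 1.21 to 0.948. Date accounted for 38.3% of its variance after adjustment for the number of dates and plate for 15.2%, against medians of 26.5% and 11.9% over all VST genes.

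**Figure D2:**
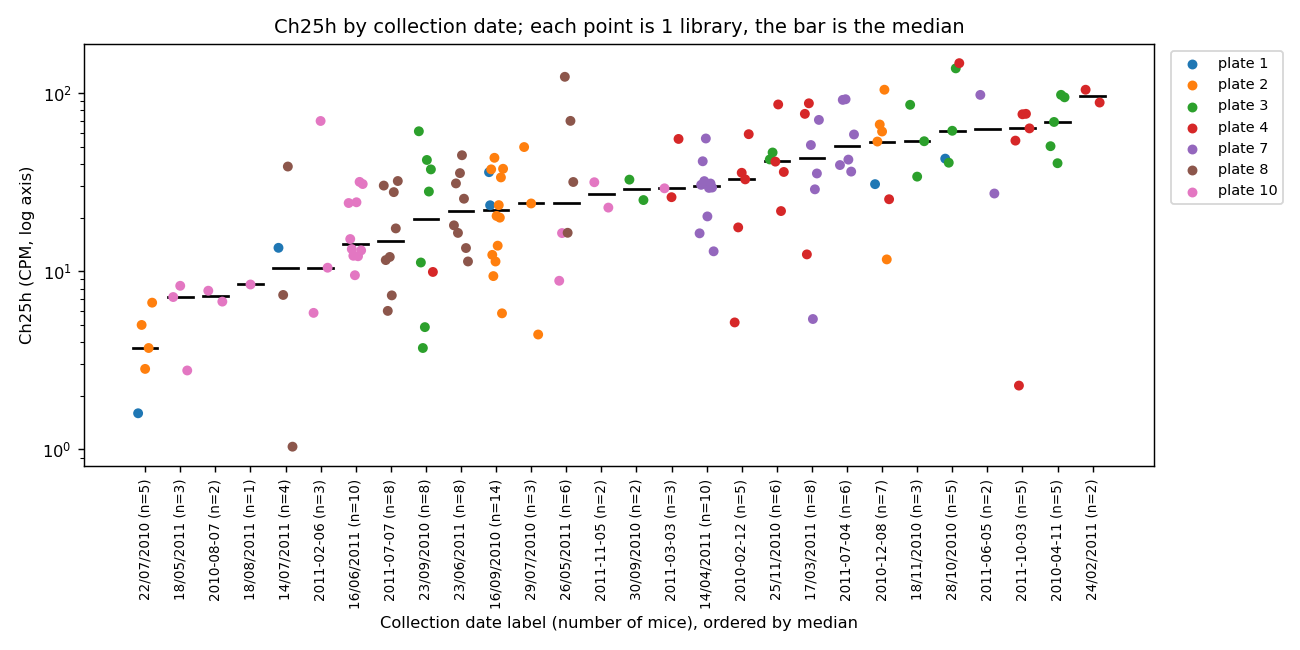
Ch25h in CPM on a log axis for each mouse, arranged by collection date label and coloured by plate, with a bar at the median of each label. Among labels with at least 4 mice, medians run from 3.71 CPM on 22/07/2010 to 68.9 CPM on 2010-04-11, and mice of 1 date differ by up to 37.4-fold.

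All 8 genes differed between plates in edgeR's quasi-likelihood test, with adjusted p from 1.77e-07 for Npc2 to 0.0474 for Lipa, where 74.8% of all tested genes were called. All 8 also differed between dates with plate held, with adjusted p from 1.57e-06 for Nceh1 to 0.0292 for Gpr183, where 69.2% of genes were called. These shares are high for any gene in these libraries, so the 8 calls say little about sterol genes as such. Lipa missed the plate threshold without the filter on low counts (adjusted p = 0.062) and without the 6 libraries of plate 1 (adjusted p = 0.13).

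Date accounted for 48.97% of the variance of Nceh1, 44.5% of Soat1, 38.96% of Npc2, 35.6% of Npc1, 30.8% of Gpr183, 28.7% of Cyp27a1 and 18.1% of Lipa. The date medians of the other members were much closer together than those of Ch25h. They ran from 5.25 to 8.55 CPM for Cyp27a1, from 41.1 to 59.9 for Gpr183, from 347 to 455 for Soat1 and from 442 to 596 for Nceh1. For Lipa they ran from 1212 to 1588 CPM, for Npc1 from 365 to 431 and for Npc2 from 922 to 1373. The date with the highest Npc2 median, 22/07/2010, was the date with the lowest Ch25h median.

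The library total was correlated with each of the 8 members, 8 relations in all. Ch25h correlated with the library total at r = 0.198 (permutation p = 0.0165, two-sided) and rho = 0.204 (permutation p = 0.0133), with r = 0.152 without the 2 libraries farthest from the median depth. Npc2 had r = -0.278 (permutation p = 0.00073) and rho = -0.261 (permutation p = 0.00162), with r = -0.238 without those 2. Nceh1 had r = 0.137 (permutation p = 0.0980) and rho = 0.171 (permutation p = 0.0380), and the permutation p of the other 5 members were above 0.05. Within plates r ranged from -0.353 to 0.357 for Ch25h, from -0.506 to 0.264 for Npc2 and from -0.351 to 0.388 for Nceh1, so none of these directions held on every plate. Adjusted over the 8 members by Benjamini-Hochberg, the permutation p of r was 0.00584 for Npc2, 0.0661 for Ch25h and 0.261 for Nceh1, and that of rho 0.0130, 0.0532 and 0.101.

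Between the labelled sexes, Npc1 was the 1 member of 8 that differed, where 5.02% of all tested genes were called and 2.17% were called higher in males. Npc1 lies on chromosome 18 from 12189692 to 12236400 on the minus strand. It overlaps genes that held 366577 counts over all libraries against 2721948 of its own, and 4.39% of its 50-mers occur in another annotated gene. Npc1 had a lowest, median and highest value of 320, 381 and 472 CPM in females (mean 386 ± 30.6, SD, n = 86) and of 343, 407 and 464 CPM in males (mean 404 ± 25.9, SD, n = 60), and the sexes overlapped. The male excess was 0.08 ± 0.02 on the log2 scale (SE, edgeR adjusted p = 0.0109), much smaller than the range within either sex. It was seen on 6 of 7 plates, with log2 differences between -0.03 on plate 2 and 0.15 on plate 7. With plate and collection date both held it was 0.06 and missed the threshold (adjusted p = 0.051).

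Ch25h had a median of 31.4 CPM in females and 24.8 CPM in males, with a log2 difference, male minus female, of -0.23 ± 0.20 (SE, edgeR adjusted p = 0.529). That difference was 0.05 with date in place of plate, and it ranged from -1.67 to 0.20 within plates. The sexes overlapped over nearly the whole Ch25h range. Npc2 and Soat1 differed by 0.05 (adjusted p = 0.386) and 0.03 (adjusted p = 0.426), and the adjusted p of the remaining members were 0.548 or higher. None of the 8 members was called by edgeR in the interaction of sex and plate (all adjusted p 0.996, 0 members with an unadjusted p under 0.05, lowest 0.228), where 0.0415% of genes were called.

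Over the 146 mice the 8 genes fell into opposed relations around Ch25h and shared relations among the ester and lysosome genes. Correlations were computed on VST values with plate and sex removed. A pair was called when limma's adjusted p over all genes was under 0.05 with each gene in turn as the predictor. Of the 28 pairs 17 were called, 10 positive and 7 negative, against 46% of all member and gene tests. With date in place of plate 11 pairs were called (37% of all tests), and with 5 principal components of all genes removed as well 7 (11.5%). These shares count single tests on a member, so the rule for pairs was stricter. The permutation p-values beside r and rho take no account of mice that share a collection date, and 1e-05 is the smallest they can give. Limma calls with plate and sex removed take no account of shared dates either.

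Ch25h was lower where Npc2 and Cyp27a1 were higher. Ch25h and Npc2 had r = -0.639 and rho = -0.532 (both permutation p = 1e-05, n = 146), and r = -0.599 without the 2 mice farthest from the Ch25h median. The sign was the same on all 7 plates, from -0.872 to -0.321, and r was -0.621 with date in place of plate. Ch25h and Cyp27a1 had r = -0.594 and rho = -0.556 (both permutation p = 1e-05), -0.577 without the 2 farthest mice, -0.724 to -0.121 on the 7 plates and -0.576 with date removed. Cyp27a1 and Npc2 in turn rose together over mice, with r = 0.490 and rho = 0.437 (both permutation p = 1e-05). The hydroxylases Ch25h and Cyp27a1 ran opposite to each other on every plate.

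The tie of Ch25h to these genes lay along the main axis of variation that remained with plate and sex removed. Principal components were taken from the VST residuals of all genes, members included, with each gene scaled to equal spread. The first held 21.6% of that variance. It correlated with the residuals of Ch25h at 0.802, of Npc2 at -0.800 and of Cyp27a1 at -0.505. With 5 components removed, r was -0.0171 for Ch25h and Npc2, to -0.185 for Ch25h and Cyp27a1 and to 0.0364 for Cyp27a1 and Npc2, and none of these pairs was called.

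Soat1 and Npc1 were the most strongly joined positive pair. They had r = 0.643 and rho = 0.60 (both permutation p = 1e-05), 0.616 without the 2 farthest mice, 0.532 to 0.807 on the 7 plates, 0.533 with date removed and 0.539 with 5 components removed. Soat1 and Nceh1, which make and cleave cholesterol esters, had r = 0.461 and rho = 0.475 (both permutation p = 1e-05), with 0.312 to 0.571 on the plates and 0.449 with 5 components removed. Both pairs kept their sign on every plate and were called under each of these removals.

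Nceh1, Lipa and Npc1 were also positively joined to each other. Nceh1 and Lipa had r = 0.382, Nceh1 and Npc1 0.376, and Lipa and Npc1 0.356. Soat1 and Lipa had r = 0.283 and Npc1 and Npc2, the 2 proteins of lysosomal exit, 0.283. Soat1 and Npc2 had r = 0.211. The last value was 0.084 and was not called with date in place of plate (limma adjusted p = 0.58). When 5 components were removed Nceh1 kept its calls with Lipa (0.245) and Npc1 (0.354), whereas Lipa and Npc1 (0.097), Soat1 and Lipa (0.123), Npc1 and Npc2 (0.083) and Soat1 and Npc2 (0.152) were not called. Lipa and Npc2, not called at r = 0.111, had 0.445 and were called there.

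Gpr183 was higher with Npc2 (r = 0.353) and lower with Nceh1 (-0.276), Lipa (-0.240) and Ch25h (-0.206). On plate 1, which held 6 mice, the values with Nceh1 and Lipa were positive. Cyp27a1 and Nceh1 had r = -0.224, and Ch25h and Soat1 -0.225. When date replaced plate only Gpr183 and Nceh1 of these 6 pairs were called (-0.304). The values were then 0.244 for Gpr183 and Npc2, -0.167 for Gpr183 and Lipa, -0.135 for Gpr183 and Ch25h, -0.160 for Cyp27a1 and Nceh1 and -0.215 for Ch25h and Soat1 (limma adjusted p from 0.0885 to 0.366). Removing 5 components gave Ch25h and Soat1 a value of -0.467 and gave Ch25h and Nceh1, which had r = 0.181 and were not called, a value of -0.469 (limma adjusted p = 2.77e-06). Ch25h and its chromosomal neighbour Lipa had r = 0.018, and on single plates values from -0.697 to 0.363.

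**Figure D3:**
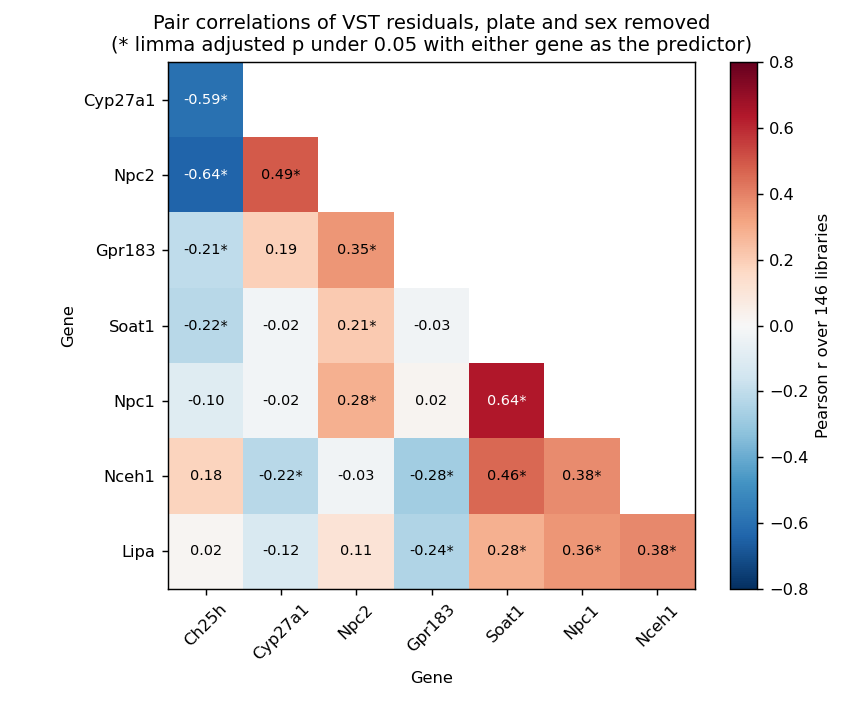
Pearson r of VST residuals for the 28 pairs of the 8 genes over 146 libraries, with plate and sex removed. Stars mark the 17 pairs called by limma.

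**Figure D4:**
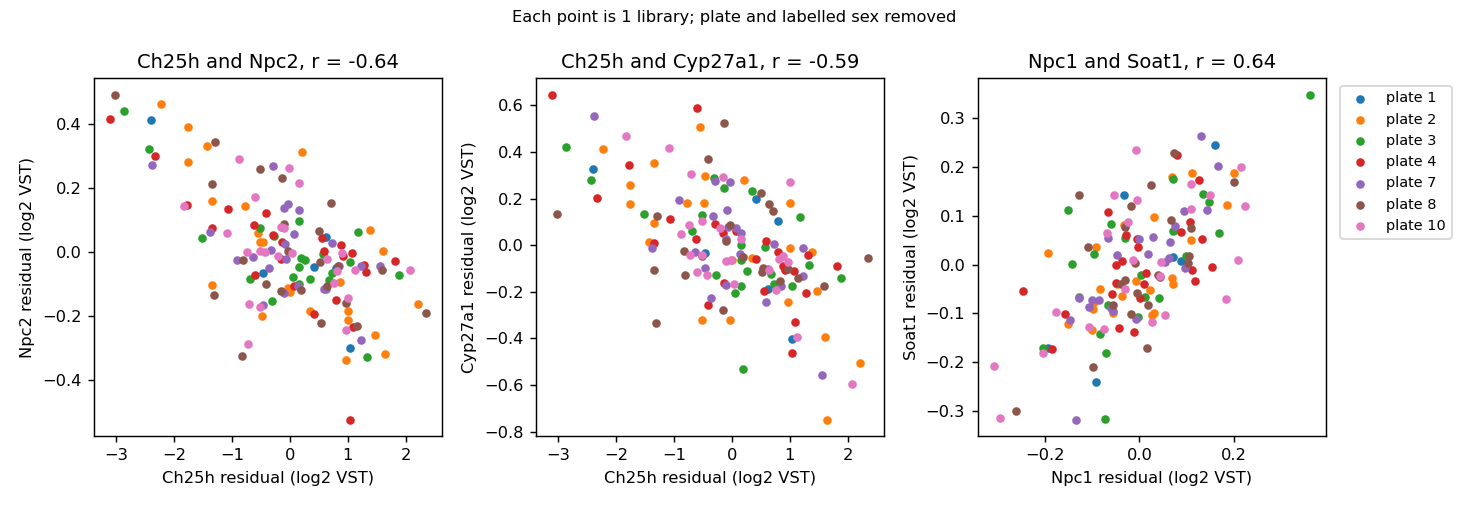
VST residuals after removal of plate and sex for 3 pairs, 1 point per mouse, coloured by plate. Ch25h falls as Npc2 and Cyp27a1 rise (r = -0.639 and -0.594), and Soat1 rises with Npc1 (r = 0.643).

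The genes most like each member were named by Spearman rho over the residuals of all VST genes, and their levels say nothing here of shared function or control. Limma called 7803 of the other 10892 genes with Ch25h (71.6%), 6063 with Cyp27a1 (55.7%), 4074 with Gpr183 (37.4%) and 3981 with Soat1 (36.5%). It called 3914 with Nceh1 (35.9%), 1857 with Lipa (17.0%), 4727 with Npc1 (43.4%) and 7649 with Npc2 (70.2%). Date in place of plate left 470 genes (4.32%) called with Gpr183 and 1594 (14.6%) with Soat1. With 5 components removed as well, 1074 genes (9.86%) were called with Ch25h and 42 (0.386%) with Cyp27a1.

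The 10 genes highest with Ch25h had rho from 0.762 to 0.860. Golm1, a Golgi membrane protein, led with 0.860 but is uncertain, since 26.6% of its 50-mers occur in another gene, and Pald1, a phosphatase-domain protein, followed with 0.844. Pald1 itself ranged from 6.08 to 104 CPM around a median of 31.99. Tigar, a regulator of glycolysis, had 0.805, Ubash3b, a tyrosine phosphatase, 0.793, Luzp1 0.789, Extl3, a glycosyltransferase of heparan sulfate, 0.777, Ppfibp1, a liprin, 0.774, Myo7a, an unconventional myosin, 0.770, Nrp2, a neuropilin, 0.766 and Tmem273 0.762. After removal of 5 components 8 of these 10 genes were still called, from 0.244 for Tmem273 to 0.554 for Luzp1, while Ppfibp1 (0.176) and Myo7a (0.106) were not.

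The 5 genes lowest with Ch25h included a lymphoid and myeloid transcription factor. Rhov, a small GTPase, had rho = -0.855, Irf4, that transcription factor, -0.833, Baiap2, an adaptor between actin and membrane, -0.817, Dirc2, a lysosomal membrane transporter, -0.816 and Prune1 -0.813. Irf4 ranged from 0.907 to 24.3 CPM around 5.67. Rhov had -0.565 and Irf4 -0.219 with 5 components removed, and Prune1 was not called there.

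Npc2 was most like Trem2, a lipid-binding receptor of macrophages, with rho = 0.807 and Ctsa, the lysosomal protective protein, 0.789. Atraid had 0.783 and Gabarapl1, an autophagy protein, 0.774, whereas Rbl1, a pocket protein of the cell cycle, had -0.779 and Rad54l, a DNA repair protein, -0.770. Of these 6 only Trem2 (0.486) and Ctsa (0.343) were called with 5 components removed. Cyp27a1 was lowest with Ppp2r1b, a phosphatase scaffold, at -0.656 and with the same Rbl1 at -0.600. Its highest partners were Dbp, a circadian transcription factor (0.611, uncertain at 20.7% shared 50-mers), Kxd1 (0.603) and Calcoco1 (0.587). None of these 5 partners of Cyp27a1 was called with 5 components removed.

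Lipa was most like Cat, which encodes catalase, with rho = 0.726. Creg1, a lysosomal glycoprotein, had 0.723, Gclm, a subunit of the enzyme for glutathione synthesis, 0.649 and Rnf128, a ubiquitin ligase, 0.637. The lowest were Lbr, the lamin B receptor with sterol reductase activity, at -0.567 and Ripk3, a kinase of necroptosis, at -0.565. All 6 were called with 5 components removed, from -0.429 for Ripk3 to 0.693 for Creg1. Of all 10892 genes 2804 were then called with Lipa, and the choice of these 6 by rho favours such calls.

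Nceh1 was most like Atp6v1a, the catalytic subunit of the proton pump that acidifies lysosomes, with rho = 0.743. Naa50 had 0.649, Tgfbr1, a TGF-beta receptor, 0.644 and Sgpl1, the lyase of sphingosine phosphate, 0.637. Slc16a3, a lactate transporter, had -0.658 and Impa2 -0.655 (uncertain at 21.1%). Soat1 was most like Ric1 (0.676), Dnajb14, a chaperone partner of the endoplasmic reticulum (0.643), Lyst, the regulator of lysosomal trafficking (0.633) and Snx27, a sorting nexin of endosomes (0.623). Ets2, a transcription factor, had -0.671 and Dmwd -0.590 with Soat1. All 12 partners of Nceh1 and Soat1 were called with 5 components removed. Of all 10892 genes 1751 were then called with Nceh1 and 1914 with Soat1. The partners were chosen by their rho in the same libraries, which favours such calls.

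Npc1 was most like Kif13b, a kinesin (0.772), the creatine transporter Slc6a8 (0.727), the taurine transporter Slc6a6 (0.710) and Mrtfb, a coactivator of serum response factor (0.705). Its lowest partners were Wdr43, a protein of ribosome assembly (-0.659) and Prpf38a, a splicing factor (-0.648), of which Prpf38a was not called with 5 components removed. Gpr183 had weaker partners, with Susd3 at 0.545, Cyth4, an ARF exchange factor, at 0.514, Lsr, a lipoprotein receptor, at 0.502 (uncertain at 27.8%) and Tspan14 at 0.499. Tbcel had -0.523 and Papss2, which makes the sulfate donor, -0.499 with Gpr183. With date in place of plate the Gpr183 values were closer to 0, from -0.416 for Tbcel to 0.369 for Lsr. Cyth4 and Tbcel were not called with 5 components removed.

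Of 3 other enzymes of oxysterol metabolism tested, 0 were higher and 3 lower with Ch25h, where 37.1% of all genes were higher and 34.6% lower. A set of 3 is too small to read against those shares. Cyp7b1, Cyp46a1, Cyp11a1, Sult2b1 and Akr1d1 of the same list had no VST row, and Cyp7b1 had no counts in 119 libraries. Hsd11b1, which acts on steroids and oxysterols, had rho = -0.563, Hsd3b7, a steroid dehydrogenase of bile acid synthesis (uncertain at 91.4%), -0.446 and Cyp39a1, an oxysterol hydroxylase, -0.200. Cyp39a1 and Hsd11b1 were not called with Ch25h when 5 components were removed. Hsd3b7 and Cyp39a1 were higher with Cyp27a1, at 0.393 and 0.275, neither of which was called with 5 components removed, and Hsd11b1 was higher with Soat1 at 0.304. With Cyp27a1 2 of the 3 were higher and 0 lower, beside 26.6% and 29.1% of all genes.

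Genes of cholesterol synthesis were higher with Ch25h and lower with the lysosomal exit genes. Of 20 tested, 16 were higher and 1 lower with Ch25h (median rho 0.234), beside 37.1% and 34.6% of all genes. With Npc2 1 was higher and 18 lower (-0.322), beside 34.8% and 35.4% of all genes. Ebp, a sterol isomerase, had rho = 0.439 with Ch25h and -0.502 with Npc2, and Hsd17b7, a sterol reductase, 0.435 and -0.452. Tm7sf2, another sterol reductase, went the other way with Ch25h at -0.475. None was higher and 16 were lower with Npc1 (21.9% of all genes lower), among them Ebp at -0.392 and Nsdhl, a sterol dehydrogenase, at -0.347. None was higher and 14 were lower with Lipa (8.92%), among them Pmvk, phosphomevalonate kinase, at -0.385, and 10 were lower with Soat1 (18.2%), with Ebp at -0.346. When date replaced plate 6 were lower with Soat1 (6.14%). After removal of 5 components limma called 0 of the 20 genes with Ch25h (1 at an unadjusted p under 0.05), where 9.86% of all genes were called. It then called 1 higher with Npc1 (7.74% of all genes), 3 higher with Soat1 (10.4%) and 1 lower with Npc2 (4.26%). Lipa again had 14 lower, where 13.2% of genes were lower.

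LXR targets and efflux genes, which oxysterols are known to induce through LXR, were mostly lower where Ch25h was higher. Of 11 tested, 1 was higher and 7 lower with Ch25h (median rho -0.206), beside 37.1% and 34.6% of all genes. Pltp, the phospholipid transfer protein, had -0.702 and Abcg1, a sterol efflux transporter, -0.504, and Lpcat3, a phospholipid-remodelling enzyme, was the exception at 0.436. With Npc2, 8 were higher and 1 lower (34.8% and 35.4% of all genes), with Pltp at 0.764 and Lpcat3 at -0.631. With Cyp27a1, 6 were higher and 1 lower (26.6% and 29.1% of all genes), with Pltp at 0.515. Gpr183 had 5 higher, Pltp at 0.465 and Abcg1 at 0.446 among them, and 1 lower, beside 18.1% and 19.3% of all genes. Soat1 had 6 higher and 0 lower, beside 18.4% and 18.2% of all genes, with Smpdl3a at 0.495 and Nr1h3, the LXR alpha receptor, at 0.428. Gpr183 and Soat1 each had 3 higher and 0 lower with date in place of plate. Of all genes 2.81% were then higher with Gpr183 and 8.49% with Soat1. Npc1 had 7 higher, Apoe at 0.429 among them, and 2 lower (21.5% and 21.9% of all genes). Lipa had 3 and 3 (8.13% and 8.92%), with Smpdl3a at 0.519. Ch25h had 1 higher and 1 lower with 5 components removed (4.71% and 5.15% of all genes), and Soat1 4 higher and 1 lower (10.4% and 7.15%). Of 8 genes of SREBP2 sensing and uptake 6 were higher and 1 lower with Ch25h (37.1% and 34.6% of all genes). With Npc2 1 was higher and 6 lower (34.8% and 35.4%), while Mbtps1, a protease that processes SREBP2, had 0.421 with Npc1.

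Oxysterol receptors and binding proteins were split. With Ch25h 5 of 14 were higher and 7 lower, beside 37.1% and 34.6% of all genes, with Osbpl9, an oxysterol-binding protein relative, at -0.737 and Rora, a nuclear receptor, at -0.653. Nr1h2, the LXR beta receptor, had 0.496 with Cyp27a1. Among cholesterol ester and droplet genes 3 of 7 were higher and 2 lower with Ch25h, also near those shares, with Abhd5, the coactivator of the droplet lipase, at 0.633 and Pnpla2, that lipase, at -0.427. Plin2, a droplet coat protein, had 0.457 with Lipa, and Acat1, the mitochondrial thiolase, -0.511 with Soat1.

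Lysosomal hydrolases and the proton pump were called higher more than lower with Npc1, Soat1, Lipa and Nceh1. Of 26 tested, 15 were higher and 0 lower with Npc1 (21.5% of all genes higher), 13 and 0 with Soat1 (18.4%), 12 and 0 with Lipa (8.13%), and 11 and 2 with Nceh1 (19.2%). Npc1 had Hexa, a hexosaminidase subunit, at 0.503. Soat1 had Psap, the saposin precursor, at 0.569 and Gla, an alpha-galactosidase, at 0.544. Lipa had Tpp1, a peptidase, at 0.527, and Nceh1 had Atp6v1h, a pump subunit, at 0.496 and Ctsb, a cathepsin, at 0.461. Npc2 had 11 higher and 6 lower of 26, beside 34.8% and 35.4% of all genes, and Ch25h 8 higher and 11 lower, beside 37.1% and 34.6%, so both lay near the background. Hexa had 0.705 with Npc2, and Ctsa had -0.640 and Psap -0.606 with Ch25h. Soat1 had 9 higher and 0 lower with date in place of plate (8.49% and 6.14% of all genes).

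After removal of 5 components limma called 21 of 26 higher with Soat1 (10.4% of all genes), 17 with Nceh1 (8.28%), 16 with Lipa (12.5%), 13 with Npc1 (7.74%) and 11 with Npc2 (4.69%), with 0 lower for each. Ch25h had 0 higher and 10 lower (5.15%), with Psap at -0.426. Among endosome and lysosome sterol transfer genes, Stard5, a sterol carrier, had rho = 0.608 with Soat1 and 0.424 with Nceh1, and Scarb2, a lysosomal membrane receptor, 0.573 with Lipa. Of the 17 genes of that list 7 were higher and 1 lower with Soat1 when only plate and sex were removed, beside 18.4% and 18.2% of all genes.

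Interferon response genes were higher with Ch25h. Of 18 tested, 17 were higher and 0 lower (median rho 0.357), beside 37.1% and 34.6% of all genes. Oas1a (uncertain through shared 50-mers) had 0.490, Ddx58, a sensor of viral RNA, 0.442 and Stat2, a transcription factor of interferon signalling, 0.435. With date in place of plate all 18 were higher, where 35.6% of all genes were. When 5 components were removed limma called 0, where 4.71% of genes were higher. At an unadjusted p under 0.05 there were then 6 higher and 0 lower, and the median rho was 0.158. With Cyp27a1 10 of 18 were lower and 0 higher, beside 29.1% and 26.6% of all genes. Limma called 0 of 18 with Gpr183, with Nceh1 and with Lipa, beside 37.4%, 35.9% and 17.0% of all genes. At an unadjusted p under 0.05 there were also 0.

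NF-kB and inflammatory genes had no common direction with Ch25h: 5 of 13 were higher and 6 lower, beside 37.1% and 34.6% of all genes. Ccl2, a chemokine, had rho = 0.523 and Tnf 0.50, and Socs3, an inhibitor of cytokine signalling, -0.668. After removal of 5 components 9 of 13 were higher and 0 lower (4.71% and 5.15% of all genes), with Tnf at 0.387 and Ccl2 at 0.332. Of 16 immediate early genes 2 were higher and 11 lower with Ch25h (34.6% of all genes lower), with Egr2 at -0.684. They were 12 higher and 1 lower with Cyp27a1 (26.6% of all genes higher), 11 and 1 with Npc2 (34.8%) and 9 and 1 with Gpr183 (18.1%). When date replaced plate Gpr183 had 1 higher and 0 lower (2.81% of all genes higher). Gpr183 had Ier3, an early response gene, at 0.366 and Nlrp3, an inflammasome sensor, at 0.412.

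Genes of the cell cycle followed the same opposition. All 15 DNA replication genes were higher with Ch25h (median rho 0.448, Tyms, thymidylate synthase, at 0.643) and all 15 lower with Npc2 (-0.659), Cyp27a1 (-0.360), Npc1 (-0.408) and Soat1 (-0.333). Of all genes 37.1% were higher with Ch25h, and 35.4%, 29.1%, 21.9% and 18.2% lower with Npc2, Cyp27a1, Npc1 and Soat1. The count with Soat1 was 1 of 15 with date in place of plate (6.14% of all genes lower), while it was 15 with Npc2 and with Cyp27a1 and 13 with Npc1. Of all 10892 genes 3513, 2872 and 2014 were then lower with Npc2, Cyp27a1 and Npc1. Tyms had -0.711 with Npc2 and -0.454 with Cyp27a1, and Cdc6, a replication licensing factor, -0.730 with Npc2, -0.497 with Npc1 and -0.389 with Gpr183. Of 12 mitosis genes 11 were higher with Ch25h (37.1% of all genes), with Bub1, a checkpoint kinase, at 0.592. When 5 components were removed limma called 0 of the 15 and 0 of the 12 with Ch25h, where 9.86% of all genes were called. At an unadjusted p under 0.05 there was 1 of each.

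**Figure D5:**
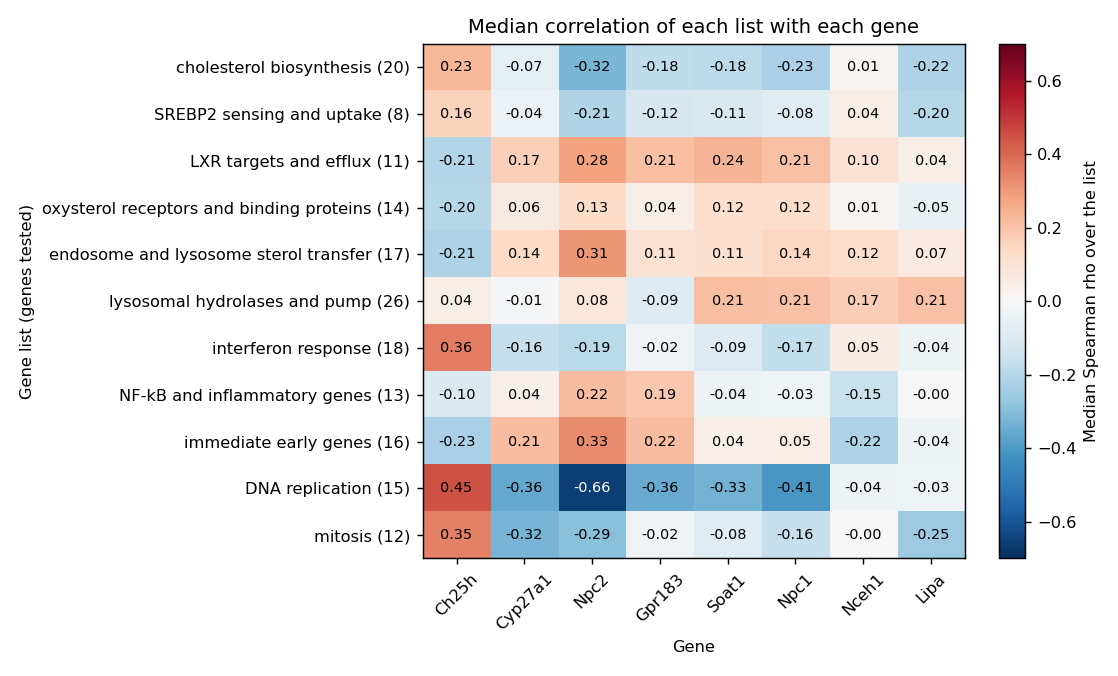
Median Spearman rho of the tested genes of each list with each of the 8 genes, with plate and sex removed. Cholesterol synthesis and DNA replication genes have a positive median with Ch25h and a negative median with Npc1 and Npc2.

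Markers of other cells moved with Ch25h, and in bulk libraries fewer cells of a type and less RNA per cell cannot be told apart. The summed level of 7 dendritic cell markers ranged from 15.2 to 128 CPM over the libraries (median 28.7) and had rho = -0.678 with Ch25h and 0.569 with Npc2. Most of that sum was Itgax, which macrophages also express (12.0 to 119 CPM, median 23.7), while the median of each other marker was at most 2.17 CPM. The 7 osteoclast markers ranged from 42.2 to 307 CPM (median 78.2), with -0.670 and 0.598, and Calcr, their calcitonin receptor, had a median of 0. The 6 B cell markers summed to 0.624 to 9.74 CPM, with -0.601 and 0.487, and Pax5 had a median of 0. The 13 granulocyte and precursor markers ranged from 77.6 to 1810 CPM (median 359), with -0.498 and 0.067, and with -0.388 for Nceh1 and -0.351 for Lipa.

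Of the markers with VST rows, 9 of 11 granulocyte, 5 of 5 osteoclast, 2 of 2 dendritic and 1 of 1 B cell markers were lower with Ch25h, beside 34.6% of all genes, and 0 were higher. The sets of 1 and 2 markers are too small to read against that share. Atp6v0d2, a pump subunit of osteoclasts, had rho = -0.714, the integrin Itgax -0.666, Cd79b, a B cell receptor subunit, -0.615, Flt3, a receptor of progenitors and dendritic cells, -0.575 and Ctsg, a granule protease, -0.552. Npc2 had Atp6v0d2 at 0.639 and Itgax at 0.574, and Gpr183 had Flt3 at 0.482. All 11 granulocyte markers were lower with Nceh1 (16.7% of all genes), with Prtn3, a granule protease, at -0.391, and Prtn3 had -0.404 with Lipa. The 5 stromal markers summed to 0.0746 to 81.2 CPM (median 3.84) and had rho = -0.279 with Ch25h, and the 5 T and NK cell markers had -0.362 with Ch25h. The part of these cells in the Ch25h, Npc2, Nceh1 and Lipa relations was not tested.

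The 8 macrophage markers summed to 11120 to 23933 CPM (median 14583) and had rho = 0.036 with Ch25h, 0.425 with Lipa, 0.405 with Soat1 and 0.317 with Nceh1. Most of that sum was Lyz2 (6299 to 18798 CPM, median 9571). Of the 8 markers, 3 were higher and 3 lower with Ch25h, beside 37.1% and 34.6% of all genes. Mertk, an efferocytosis receptor, had 0.703, Csf1r, the M-CSF receptor, 0.527, and Mrc1, the mannose receptor, -0.376. The macrophage sum was thus far above every other sum in each range given here, and its part in the Lipa, Soat1 and Nceh1 relations was not tested.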

How the data were processed

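RNA of 146 macrophage libraries was analysed from the deposited tables. Per the submitters' processing notes, the tools were FastQC, TopHat2 2.0.11 and HTSeq 0.6.1 on GRCm38 (mm10), then DESeq2. The authors deposited raw counts for 22721 genes and log2 values (VST, DESeq2) for 10893 genes, each with at least 5 counts in every library. The annotation release of the counting is not given in the sources used here, and genes were named from GENCODE M21.

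CPM used library totals. Sex, plate, date and their interaction were tested with edgeR 4.0.16 in R 4.3.3 (quasi-likelihood, TMM, filterByExpr, Benjamini-Hochberg adjusted p under 0.05). DESeq2 1.42.0 was an alternative. Associations used limma 3.58.1 on VST values with plate and sex as covariates, and 100000 permutations with scipy 1.17.1. The 5 principal components were computed from all VST genes, members included, after removal of plate and sex and scaling of each gene. The edgeR, limma and permutation steps were tested on simulated data.

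Text names the 10 highest and 5 lowest genes by rho for Ch25h, 4 and 2 for other members, and at most 4 per list and member. Some genes that this rule chose are not reported here. Genes with 20% or more shared 50-mers are marked uncertain. Insig1, Insig2, Stard4 and Nr1h3 stand in 2 lists each. The members, lists and rules were chosen with earlier results of these data known.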

Additional observations from a re-analysis of the deposited data

Results flagged for a closer look

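Dixon's test was run for each member in each collection date or plate of 4 to 10 mice, 136 tests in all. It flagged a mouse far from the others in 10 tests, all within dates, and chance flags about 1 test in 20. Tests of different members on the same mice are not independent. On 2011-10-03, with 5 mice, male 37 stood apart in 3 members. Its Ch25h was 2.28 CPM beside 54.2 to 76.6 CPM in the other mice of that date, its Cyp27a1 11.5 CPM beside 6.20 to 6.91, and its Npc2 1342 CPM beside 945 to 1036. On 23/09/2010, with 8 mice, female 35 had 61.7 CPM of Gpr183 beside 38.1 to 45.9 and 403 CPM of Nceh1 beside 517 to 624.

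On 17/03/2011, with 8 mice, female 64 had 10.2 CPM of Cyp27a1 beside 4.95 to 6.83, and female 65 had 485 CPM of Soat1 beside 390 to 432. On 14/04/2011, with 10 mice, female 74 had 470.2 CPM of Nceh1 beside 552 to 633, and female 73 had 1803 CPM of Lipa beside 1315 to 1441. On 16/06/2011, with 10 mice, female 14 had 398 CPM of Nceh1 beside 477 to 528.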

How the results depend on the processing

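Libraries of a plate or date cannot be split into animals, culture and library preparation, and no repeat culture of a mouse was measured. Depth limits Ch25h at its low end, where 1 library had 15 counts. The design holds no pairs, since each mouse gave 1 library of untreated cells. The labels carry no replicate numbers, and the numbers used here only name libraries. The cause of the changes below was not tested.

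Among single members 1 call was lost with plate and collection date both held (added after the data were seen), so that 0 of 8 members differed between sexes. Over all genes 926 differed between sexes without the 6 libraries that went against the labelled sex and 948 with lane within plate, against 605, and 1 gene, against 5, was called in the interaction without those 6.

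Called pairs numbered 11 with date in place of plate, 11 with plate and date, and 7 with 5 components removed, against 17. With 5 components removed Ch25h and Gpr183 had r = 0.211, Ch25h and Nceh1 -0.469, and Cyp27a1 and Nceh1 0.0464, each the opposite sign of the value with plate and sex removed. Signs also turned within plates: Ch25h and Gpr183 at 0.0334 on plate 8, Ch25h and Soat1 at 0.0423 on plate 3, Cyp27a1 and Nceh1 at 0.627 on plate 1 and 0.0138 on plate 8, Gpr183 and Nceh1 at 0.742 on plate 1, Gpr183 and Lipa at 0.811 on plate 1 and 0.155 on plate 4, Gpr183 and Npc2 at -0.00544 on plate 7, Soat1 and Npc2 at -0.0545 and Npc1 and Npc2 at -0.0940 on plate 3, and Nceh1 and Npc1 at -0.0647 on plate 8.

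With 5 components removed the associated genes numbered 1074 for Ch25h, 42 for Cyp27a1, 197 for Gpr183, 1914 for Soat1, 1751 for Nceh1, 2804 for Lipa, 1289 for Npc1 and 975 for Npc2. With date in place of plate they numbered 470 for Gpr183 and 1594 for Soat1, and with plate and date 745 for Gpr183, 1561 for Soat1 and 3081 for Npc1.

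Of 141 associations of a gene chosen for naming with a member, 138 stayed past the threshold with date in place of plate and 140 without the 6 libraries. With 5 components removed 78 stayed past it, 49 did not and 14 changed sign. The last were, in rho, Cyp39a1 (0.0419), Ebp (-0.0555), Lpcat3 (-0.130), Tyms (-0.00635) and Flt3 (0.0902) with Ch25h, Nr1h2 (-0.0191) and Pltp (-0.00370) with Cyp27a1, Ebp (0.0431) with Soat1, Prtn3 (0.181) with Nceh1, Ebp (0.0591) and Nsdhl (0.206) with Npc1, and Ebp (0.00406), Pltp (-0.158) and Atp6v0d2 (-0.00294) with Npc2.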
